A study of Mus musculus with 20 samples.

Results

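The late uterine response to HPTE was set against its early response: the 3 arrays of uteri collected 24 h after injection were compared with the 3 arrays collected 2 h after injection, 6 of the 20 arrays of the series. HPTE is the estrogenic metabolite of the pesticide methoxychlor. All animals were adult female C57bl6/J mice, 10 weeks old or older, ovariectomized and rested for 10 to 14 days, so that the uterus held little estrogen of its own at injection. HPTE (750 µg, in sesame oil) was given once, subcutaneously, and RNA was hybridized with 1 dye per array. The labels describe extraction uterus by uterus, while the study's methods describe RNA from pooled uteri, so an array may stand for 1 animal or for a pool. The 3 vehicle arrays (100 µl sesame oil, labelled 24 h) and the arrays of mice given BPA (750 µg) or estradiol (E2, 250 ng) at the same times were used only as reference levels or for a test of the difference in change between compounds. The comparison asks which transcripts of the early response to HPTE were still raised or lowered a day later, and which appeared only then.

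The rodent uterus answers an estrogen in phases. Within a few hours estrogen receptor α changes the transcription of immediate early genes, growth factors, vascular genes and secreted signals, and water enters the tissue. A day later the epithelium synthesizes DNA and divides, and the matrix and secretory products of the tissue change. An estrogen that is cleared or released from the receptor quickly is classically described as giving the early phase more fully than the late one.

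Levels below are scaled intensities in arbitrary units: the background-subtracted Cy3 intensity of a probe, divided by the 75th percentile of its array and put back at a common level. A change is the 24 h mean minus the 2 h mean on the log2 scale of these levels, so that 1 is a doubling. Pearson's r between arrays over the probes tested was 0.991 to 0.994 within HPTE 2 h, 0.984 to 0.991 within HPTE 24 h and 0.948 to 0.959 between them, and the median SD of a probe within a group was 0.13 at both times. The share of probes well above background was 74.5% to 78.7% over the 6 arrays. The epithelial, stromal and smooth muscle markers of the uterus were above background on all 6 arrays (25 markers). Libraries of the reference groups carried RNA of other tissues: transcripts of maturing sperm cells summed to 67369 to 225750 on the vehicle arrays, against 5869 to 13800 on HPTE 2 h and 5421 to 6389 on HPTE 24 h arrays, and pancreas transcripts to 1186 to 5241700 on the E2 arrays, against 944 to 1560 and 1242 to 2031. Bulk tissue cannot tell fewer cells of a type from less RNA per cell.

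Of 31456 probes tested, 17621 differed between 24 h and 2 h of HPTE (limma, Benjamini-Hochberg adjusted p under 0.05), which is 56.0% of those tested. Of these, 9739 were higher and 7882 lower at 24 h, and 19282 probes had an unadjusted p under 0.05. A change of at least 2-fold was also met by 2861 of the higher and 2387 of the lower probes. The largest changes were decreases: 62 probes fell by at least 16-fold and 21 rose by that much. The balance of the directions rests on the scaling. With the 75th percentile 55.3% of the changed probes were higher, with quantile normalization 52.1%, without any scaling 33.8% and after scaling to the spike-in RNAs 15.7%, and the median change of all probes was 0.05, 0.00, -0.21 and -0.49. Changes are therefore read against the median of all probes, and small increases in particular carry this limit. No slide held arrays of both times, and with the slide as a block over all 20 arrays 12384 probes were past the threshold. At the level of genes, with the brightest probe of each of 13832 genes, 35.0% were higher and 22.9% lower at 24 h, with a median change of 0.11.

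**Figure D1:**
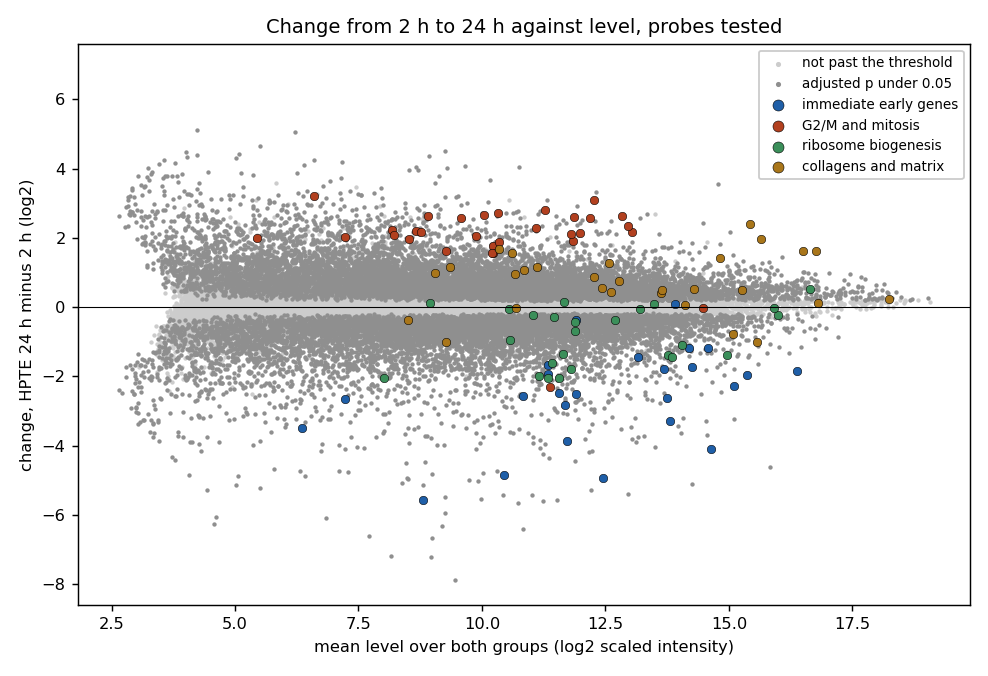
Change from 2 h to 24 h of HPTE (y axis, log2) against the mean level over both groups (x axis, log2 scaled intensity) for the 31456 probes tested, with dark grey for adjusted p under 0.05. Coloured points are the members of 4 gene lists: most immediate early genes (blue) and ribosome biogenesis genes (green) lie below 0, and most mitotic genes (red) and matrix genes (brown) above it.

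The immediate early genes, transcription factors and signals that are switched on within minutes of a stimulus, stood far above the vehicle level at 2 h and near it at 24 h. Of 25 members tested, 23 fell and none rose, where 22.9% of all genes fell, and their median change was -2.47. Fos, a subunit of the AP-1 transcription factor, read 8256, 6549 and 7835 at 2 h and 321, 206 and 274 at 24 h, beside a vehicle mean of 295. Its change was -4.84 (SE 0.18, adjusted p = 3.06e-05), and the arrays at 2 h and at 24 h did not overlap. Egr4, a zinc finger factor of the early growth response family, read 3289, 3586 and 3505 at 2 h and 29.8, 19.9 and 22.6 at 24 h, beside a vehicle mean of 27.8. Its change of -7.19 (SE 0.16, adjusted p = 1.27e-05) was among the largest of the array. Egr3, of the same family, changed by -5.57, and Egr1 by -2.63. Arc, a cytoskeletal protein first described as a neuronal early gene, read 16705, 16792 and 16833 at 2 h and 246, 178 and 179 at 24 h, a change of -6.40. Nr4a1, an orphan nuclear receptor, was at 113500, 96181 and 107452 at 2 h and 6551, 5994 and 5902 at 24 h, beside a vehicle mean of 5371. The matricellular signal Ccn1 (Cyr61) fell by 4.95 and the stress factor Atf3 by 3.87. The 2 members tested that did not pass were Myc (-0.36, adjusted p = 0.0605) and Klf6 (0.09, adjusted p = 0.431), and Nr4a3 was below background.

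Proteins that damp growth factor signalling are usually made together with the early genes. Of 10 such MAPK feedback inhibitors, 7 fell. Errfi1, an inhibitor of the EGF receptor, read 58128, 56196 and 62213 at 2 h and 4379.8, 4591 and 5371 at 24 h, a change of -3.63 (SE 0.10, adjusted p = 1.71e-05). Spry4 fell by 3.08 and the phosphatase Dusp1 by 2.86. Spry1 went the other way. It was at 3099, 3016 and 2337 at 2 h and 8208, 6662 and 7669 at 24 h, beside a vehicle mean of 9954, so that it lay below the vehicle level at 2 h, and its change was 1.42 (SE 0.14, adjusted p = 4.98e-04).

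**Figure D2:**
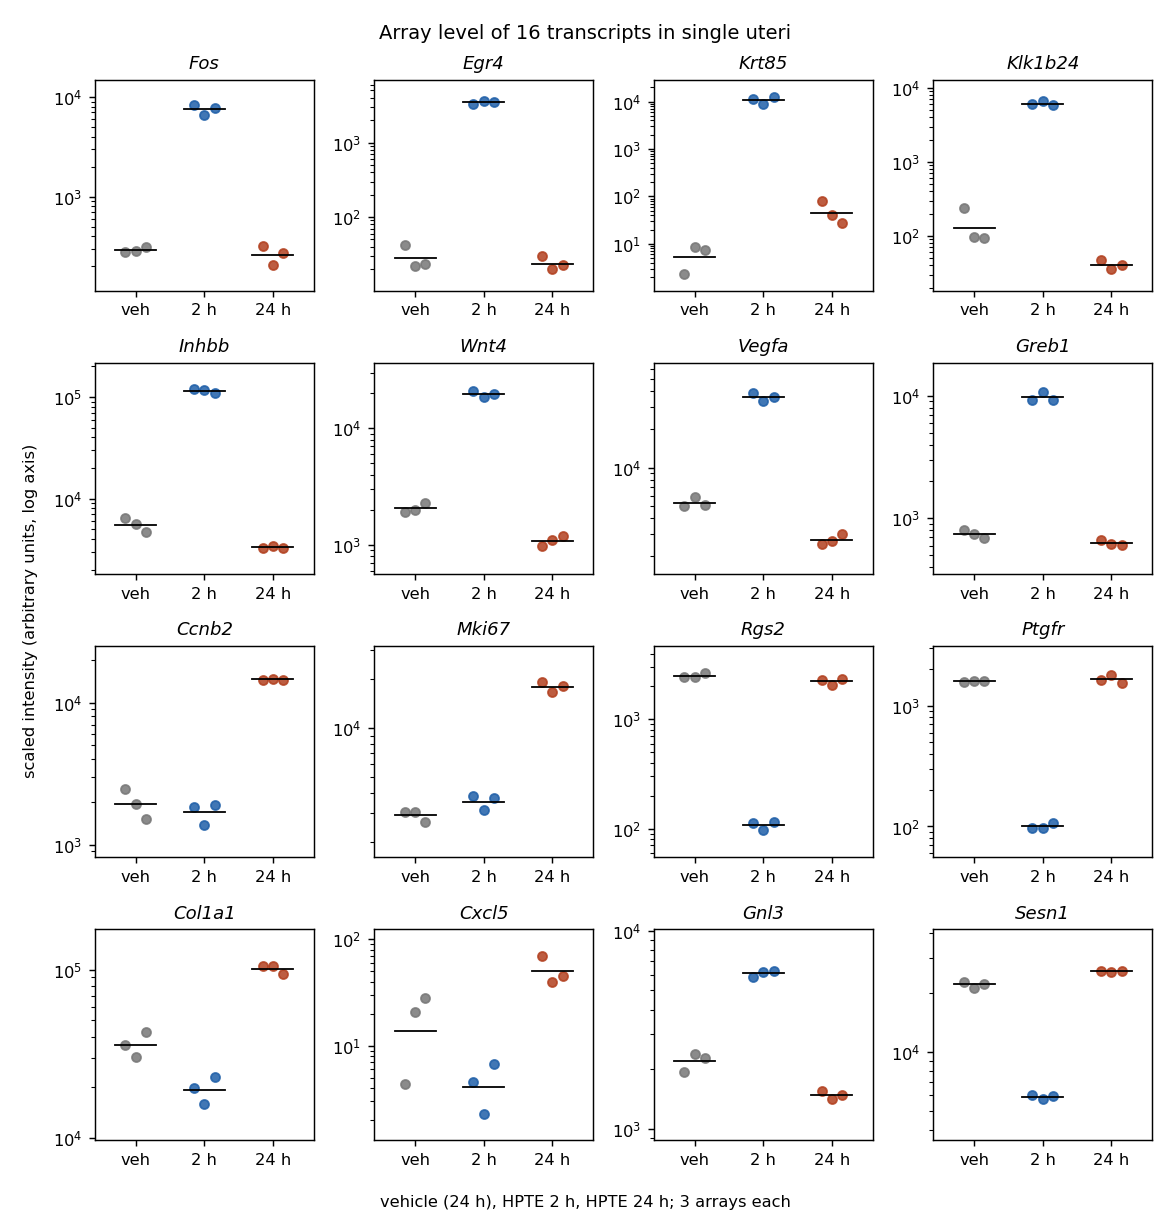
Scaled intensity (arbitrary units, log axis) of 16 transcripts on the 3 vehicle arrays (grey), the 3 HPTE 2 h arrays (blue) and the 3 HPTE 24 h arrays (red), with a bar at the mean of the log values. For each of the 16 the 2 h and 24 h arrays do not overlap: Fos to Greb1 and Gnl3 are high at 2 h, Ccnb2 and Mki67 are raised at 24 h, and Rgs2, Ptgfr and Sesn1 are low at 2 h with vehicle and 24 h arrays at a like level.

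Most of the 12 largest decreases belonged to clustered gene families. Krt85, a hair keratin, read 11058, 8997 and 12510.4 at 2 h and 80.3, 41 and 28 at 24 h, beside a vehicle mean of 5.34, a change of -7.90 (SE 0.39, adjusted p = 5.26e-05). The vehicle arrays were not well above background for it, and its 24 h arrays were. The neighbouring hair keratins Krt87 (5439, 4182 and 5863 at 2 h and 54, 38.1 and 63.1 at 24 h) and Krt86 (5638, 4190.4 and 5968 at 2 h and 52.6, 107 and 48.8 at 24 h) changed by -6.66 and -6.32. The 3 probes lay at chr15:101419766-101419825, chr15:101463017-101463076 and chr15:101502722-101502781 on the mm7 build. Kallikreins, secreted serine proteases, made up most of the rest. Klk1b24 read 6074, 6630.3 and 5799.6 at 2 h and 47.5, 35.4 and 40.7 at 24 h, beside a vehicle mean of 129.6, so that its 24 h arrays all lay below its vehicle arrays. Klk1 read 11657, 12481 and 12088 at 2 h and 294, 289 and 159 at 24 h, beside a vehicle mean of 46.9, and at 24 h it was still above vehicle. Klk1b27 changed by -6.63 and Klk1b21 by -6.09, with 2 and 1 of the 3 arrays at 24 h well above background. Klk1b5 and Klk1b11 changed by -5.41 and -3.09, the latter with 1 of the 3 arrays at 24 h well above background. One of the probes for Klk1b26 was well above background on no array at 24 h and was at least 15.7-fold lower there than at 2 h (adjusted p = 1.08e-05), and the brighter probe, measured at both times, changed by -5.54. The Klk probes lay between chr7:40173583-40173642 and chr7:40402636-40402791 (mm7). Kallikrein genes, and hair keratins among themselves, are close copies, so a probe can also bind transcripts of its neighbours and the members are not independent readings.

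Otop1 and Dok7 had decreases of like size. Otop1, a proton channel, read 208, 201 and 211 at 2 h and 2.48, 2.86 and 2.81 at 24 h. It was not well above background on any 24 h array and was at least 16.1-fold lower there (adjusted p = 8.93e-06). Dok7, an adaptor of the muscle receptor MuSK, read 5151, 5146 and 4194 at 2 h and 87.1, 70.7 and 78.1 at 24 h, beside a vehicle mean of 86.8, a change of -5.94 (SE 0.12, adjusted p = 1.25e-05).

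Inhbb encodes the βB subunit of activins and inhibins, and its levels were 120254, 116971 and 109458 at 2 h and 3294, 3387 and 3256 at 24 h, beside a vehicle mean of 5521. The change was -5.12 (SE 0.07, adjusted p = 8.93e-06), and the 24 h arrays were all below the vehicle arrays. Gdf15, a stress-induced member of the same superfamily, read 19143, 20055 and 21669.7 at 2 h and 555, 325 and 425 at 24 h, a change of -5.58. Of the 21 activin, BMP and TGF-beta genes tested, 11 fell and 4 rose (Bmp4, Bmp2, Id2 and Inha). Inha, the inhibin α subunit, moved against Inhbb: it read 155, 153 and 167 at 2 h and 564, 510.1 and 461 at 24 h, beside a vehicle mean of 556, a change of 1.69 (SE 0.10, adjusted p = 7.86e-05).

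Wnt4, a ligand needed for stromal differentiation in the uterus, read 20796, 18423 and 19752 at 2 h and 981, 1097 and 1197 at 24 h, beside a vehicle mean of 2062, a change of -4.17 (SE 0.10, adjusted p = 1.27e-05). Fzd1, a Wnt receptor, rose by 2.51, from 1710.3, 1895 and 1655 to 9902, 9783 and 10141, and at both times lay below the vehicle mean of 14140.5. Axin2, a feedback target of β-catenin signalling, fell by 1.64. Over the 21 Wnt pathway genes tested, 7 rose and 5 fell, close to the shares among all genes.

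The EGF family did not move as a block either. The ligand Hbegf fell by 3.04 (14308, 14277 and 13917 at 2 h and 1649.5, 1672 and 1835 at 24 h), the ligand Btc rose by 1.74 and the receptor Erbb3 rose by 1.80 (1858, 1958 and 1659.7 at 2 h and 6547, 5966 and 6497 at 24 h, beside a vehicle mean of 3551). Igf1, the main uterine IGF ligand, read 5189, 4552 and 5211 at 2 h and 4745, 5066 and 4074 at 24 h, and its change of -0.11 did not pass (adjusted p = 0.436). Among the 18 members tested of the EGF and IGF list, 6 rose and 3 fell. These shares of 33.3% and 16.7% lie near or below the 35.0% and 22.9% of all genes.

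Vascular genes moved both ways. Vegfa, the main driver of vascular permeability, read 38784, 33583 and 36075 at 2 h and 2500.3, 2648 and 3019 at 24 h, beside a vehicle mean of 5308, a change of -3.73 (SE 0.10, adjusted p = 1.71e-05), and its 24 h arrays lay below the vehicle arrays. The vasodilator peptide Adm changed by -2.02 and the urokinase receptor Plaur by -2.21. Of 22 vascular and permeability genes tested, 11 fell and 8 rose, or 50% and 36.4%, beside 22.9% and 35.0% of all genes. The risen ones changed by less than 1 each, among them Vegfc (0.88), and none of them was past the threshold as higher with spike-in scaling.

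Of 12 steroid receptors and coregulators tested, 6 fell and 3 rose, Gper1 and Nr3c1 among them. Greb1, a coactivator and textbook target of estrogen receptor α, read 9239, 10696 and 9261 at 2 h and 664, 620.3 and 609 at 24 h, beside a vehicle mean of 752, a change of -3.94 (SE 0.09, adjusted p = 1.27e-05). The corepressor Nrip1 fell by 2.53. Pgr, the progesterone receptor, was at 1191, 1215 and 1175 at 2 h and 490.3, 463 and 505 at 24 h, beside a vehicle mean of 453, a change of -1.30. The transcript of the receptor that HPTE itself binds, Esr1, was at 16178, 21053 and 12299 at 2 h and 12656, 16535 and 15168 at 24 h, and its change of -0.13 did not pass (adjusted p = 0.629). Gper1, a membrane receptor for estrogens, rose by 1.70 from 408, 326 and 359 to 1291, 1099 and 1154, across a vehicle mean of 878.

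Indian hedgehog, Ihh, is the epithelial ligand that signals to uterine stroma through Ptch1 and Nr2f2 (COUP-TFII). Ihh fell by 2.04 (699.9, 537 and 811 at 2 h and 172, 141 and 179 at 24 h, beside a vehicle mean of 236). Ptch1 and Nr2f2 rose by 1.43 and 1.72. Nr2f2 read 8078, 7892 and 7106 at 2 h and 23727, 26941 and 25235 at 24 h, beside a vehicle mean of 23802, so that it was about at the vehicle level at 24 h. The rise of Ptch1 was no longer past the threshold with the slide as a block. Of 15 hedgehog and stromal regulators tested, 8 rose (4 with the slide as a block) and 1, Ihh, fell.

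Genes of protein production stood above vehicle at 2 h and had come down by 24 h, the median ribosome biogenesis gene from 0.63 to -0.12 relative to the vehicle level on the log2 scale. Of 25 ribosome biogenesis genes tested, 18 fell and 1 rose (Npm1), with a median change of -0.68. Gnl3, a nucleolar GTPase, read 5830.1, 6164 and 6278 at 2 h and 1549, 1410.5 and 1477 at 24 h, beside a vehicle mean of 2192, a change of -2.04 (SE 0.07, adjusted p = 2.54e-05). Nolc1 and Ddx21, both nucleolar factors, fell by 2.05 and 1.98, and Rrp12 by 2.05. All 4 lay below the vehicle mean at 24 h. Of 24 tRNA synthetases and initiation factors tested, 14 fell and 3 rose. The cap-binding factor Eif4e fell by 0.90, and its inhibitor Eif4ebp1 rose by 1.29 (4793, 5007 and 5357 at 2 h and 12659, 13297 and 11145 at 24 h).

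Chaperones went the same way. Of 13 heat shock genes tested, 11 fell, led by Hsph1 (23902, 24518 and 24094 at 2 h and 5894, 6524 and 6209 at 24 h, beside a vehicle mean of 7361, change -1.96) and Dnajb1 (-1.36), and Hsp90ab1 alone rose. Of 20 genes of the endoplasmic reticulum stress response tested, 8 fell and 2 rose (Pdia4 and Sdf2l1), and with the slide as a block 2 fell and none rose. Atf4, the transcription factor that drives amino acid and stress genes, read 9239.6, 9136 and 10673 at 2 h and 2269, 2258 and 2280.2 at 24 h, beside a vehicle mean of 2086, a change of -2.09 (SE 0.08, adjusted p = 3.42e-05). Hspa5, the main chaperone of that compartment, fell by 0.95.

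Mitotic genes made up the clearest late group. Of 31 G2/M and mitosis genes tested, 29 rose and 1 fell, where 35.0% of all genes rose, and their median change was 2.17. The 29 rises were past the threshold with the spike-in scaling and with the slide as a block as well. Ccnb2, a B-type cyclin, read 1856, 1384 and 1898 at 2 h and 14395, 14719 and 14465 at 24 h, beside a vehicle mean of 1928, a change of 3.099 (SE 0.13, adjusted p = 4.10e-05). Mki67, the Ki67 proliferation antigen, read 3809.9, 3130.0 and 3727 at 2 h and 19243, 16574 and 18206 at 24 h, beside a vehicle mean of 2933, a change of 2.34 (SE 0.11, adjusted p = 4.54e-05). For both, the 2 h arrays were at the vehicle level and the 24 h arrays far above it. Cenpf, a kinetochore protein, rose by 2.82, Ube2c, an enzyme of mitotic exit, by 2.70, and Cdc25c, the phosphatase that activates Cdk1, by 3.19. Cdk1 itself read 640.3, 577 and 759 at 2 h and 2211, 2230.4 and 2176 at 24 h, a change of 1.75.

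Mad2l1 was the exception. This component of the spindle checkpoint read 5863, 5580.0 and 6351 at 2 h and 1136, 1265 and 1158 at 24 h, beside a vehicle mean of 563, a change of -2.32 (SE 0.08, adjusted p = 2.71e-05), and a second probe gave -2.35. It was thus high at 2 h, when the list's median was 0.12 above the vehicle level, and at 24 h it was still above vehicle. Pttg1, the securin, did not differ past the threshold (-0.02, adjusted p = 0.838).

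Since the mitotic genes moved together, the letters of their promoters are shown. Windows of 250 bases before to 50 after the start, from RefSeq on GRCm38.p6, were at hand for 25 of the 31 genes (26 windows), and each motif was searched on both strands. CCAAT, the box bound by the factor NF-Y, was in 20 of the 26 windows (76.9%) and in 37.4% of all 32851 windows. TTTGAA, the cell cycle homology element of late cell cycle genes, was in 18 of 26 (69.2%) and in 17.9% of all windows. Neither set of letters was in the windows of Birc5, Nuf2 and Nusap1, which rose, or in those of Mad2l1 and Pttg1, which did not. Stretches before the start are given below with the matched letters in capitals, read 5′ to 3′ on the strand of the gene, where ATTGG and TTCAAA are the same motifs on the other strand.

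Cdk1, CCAAT box (chr10:69352944-69352973, minus strand): tacgtgcaatcggATTGGcggatcccggga

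Cdk1, cell cycle homology element (chr10:69352913-69352942, minus strand): ctttaccgcggcgagTTTGAAactgctggc

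Kif11, CCAAT box (chr19:37376324-37376353, plus strand): gtgccgctctgctATTGGtccggtcagtcg

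Kif11, cell cycle homology element (chr19:37376351-37376380, plus strand): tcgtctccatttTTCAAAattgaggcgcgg

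Ube2c, CCAAT box (chr2:164769859-164769888, plus strand): aagcgagcctttgATTGGctagcgcagcgg

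Ube2c, cell cycle homology element (chr2:164769888-164769917, plus strand): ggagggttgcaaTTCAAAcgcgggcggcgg

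Cdc20, both (chr4:118437344-118437373, minus strand): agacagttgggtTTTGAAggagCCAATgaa

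Espl1, cell cycle homology element (chr15:102296254-102296283, plus strand): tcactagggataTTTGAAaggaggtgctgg

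Ccnb1, CCAAT box (chr13:100786537-100786566, minus strand): tgccacgaactggCCAATgaggagcgagcg

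Kif11, a spindle motor, rose by 2.03, the checkpoint target Cdc20 by 2.17, the separase Espl1 by 2.08 and cyclin B1, Ccnb1, by 2.62. In the G1/S list 5 of 33 windows (15.2%) held TTTGGCGC, an E2F site, against 0.514% of all windows. In the immediate early list 1 of 26 (3.85%) held it, and in the G2/M list none. CCAAT was in 18 of 33 windows (54.5%) of the G1/S list. The cyclic AMP response element TGACGTCA was in 2 of 26 windows (7.69%) of the immediate early genes and likewise of the G2/M genes. It was in 1 of 33 (3.03%) of the G1/S list and in 1.79% of all windows. TGACTCA, the AP-1 site, was in 5.2% of all windows and in none of these 3 lists. The estrogen response element GGTCA with 3 bases before TGACC was in 0.07% of all windows and in none of these 3 lists. A match of letters is a description and not a bound site, and these windows leave out distal elements.

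DNA replication genes moved less than mitotic genes. Of 35 G1/S genes tested, 20 rose and 4 fell (Mcm4, Ccnd1, Pcna and Gins3), with a median change of 0.37. With spike-in scaling 4 rose and 12 fell, so that the prevailing direction of this list turned with the scaling. Tk1, the thymidine kinase of S phase, read 764, 616 and 870.3 at 2 h and 3126, 3432 and 2486 at 24 h, beside a vehicle mean of 652, a change of 2.01 (SE 0.18, adjusted p = 3.07e-04). Uhrf1 rose by 1.13 and the transcription factor E2f1 by 1.06, though the call on E2f1 was lost with spike-in scaling.

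Of 20 cell cycle inhibitors and p53 targets tested, 8 rose and 7 fell, or 40% and 35%, beside 35.0% and 22.9% of all genes. With spike-in scaling 5 rose and 11 fell. Gadd45g, a stress-response inhibitor, read 300715, 292396 and 280853 at 2 h and 13200.3, 10926 and 11412 at 24 h, beside a vehicle mean of 14117, and Cdkn1a (p21) read 5501, 6780.0 and 5333 at 2 h and 678, 491 and 397 at 24 h, beside a vehicle mean of 489. Their changes were -4.62 (SE 0.09, adjusted p = 1.25e-05) and -3.52 (SE 0.21, adjusted p = 9.42e-05). Both were high at 2 h and near the vehicle level at 24 h. Sesn1, a p53 and FoxO target, read 6029, 5728 and 5964 at 2 h and 25895, 25524 and 25735 at 24 h, beside a vehicle mean of 22001, a change of 2.12 (SE 0.06, adjusted p = 1.86e-05), and the atypical cyclin Ccng2 rose by 1.54.

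Like Sesn1, many of the transcripts with the largest rises from 2 h to 24 h were low at 2 h rather than high at 24 h. Rgs2, a brake on G protein signalling, read 112, 96.6 and 114 at 2 h and 2283, 2042 and 2349 at 24 h, beside a vehicle mean of 2509.9, a change of 4.37 (SE 0.10, adjusted p = 1.27e-05), and its brighter probe changed by 3.56. Ptgfr, the prostaglandin F receptor, read 96.6, 96.6 and 108 at 2 h and 1649, 1793 and 1536 at 24 h, beside a vehicle mean of 1597, a change of 4.05 (SE 0.09, adjusted p = 1.27e-05). For both genes the 24 h arrays lay at the vehicle level and the 2 h arrays more than 10-fold below it. The organic anion transporter Slco4c1 was well above background on no 2 h array and was at least 13.7-fold higher at 24 h (adjusted p = 9.76e-05). Probes of matrix genes also stood in this group with values unlike those of the same genes' brighter probes. A dim probe for Dcn rose by 4.20 where the bright one changed by 0.23, and a dim probe for Col3a1, well above background on no 2 h array, was at least 7.51-fold higher (adjusted p = 2.66e-04), where the brightest changed by 1.98. A probe for Mab21l3 rose by 4.66 and its brighter probe by 4.02, to 2615, 2387 and 2622 from 169, 141 and 161, beside a vehicle mean of 2393. Rgs2 lay at chr1:143926378-143926437 (mm7).

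Trpv6, Rnf186, Ifne, Ccl20 and Syt4 were also among the largest rises, and their 24 h means lay above the vehicle means. Being picked as large rises favours high 24 h levels, so their place above vehicle is a description and no test. Trpv6, the epithelial calcium channel, read 124, 100.4 and 94.4 at 2 h and 1493, 1733 and 1699 at 24 h, beside a vehicle mean of 552, a change of 3.96 (SE 0.13, adjusted p = 2.16e-05). Rnf186, an epithelial ubiquitin ligase, read 19.8, 11.3 and 9.57 at 2 h and 346, 525 and 445 at 24 h, beside a vehicle mean of 146, a change of 5.07 (SE 0.30, adjusted p = 9.15e-05), with 1 of the 3 arrays at 2 h well above background. Ifne, the interferon that the female reproductive tract makes constitutively, was well above background on no 2 h array and was at least 15.5-fold higher at 24 h, with levels of 145, 170.2 and 156 against a vehicle mean of 20.9 (adjusted p = 1.46e-05). The chemokine Ccl20, likewise below background at 2 h, was at least 5.75-fold higher (adjusted p = 6.88e-05), and 1 of the 3 vehicle arrays was well above background for it. Ankrd22, well above background on no 2 h array, was at least 8.39-fold higher (adjusted p = 3.26e-04), and its 24 h level was 0.95 above vehicle on the log2 scale. A probe for Syt4, also below background at 2 h, was at least 4.57-fold higher (adjusted p = 1.51e-05), and its brighter probe rose by 3.14.

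Of 29 collagens and matrix genes tested, 22 rose and 3 fell (Eln, Timp3 and Col6a3), with a median change of 0.74. Col1a1 read 19760.1, 15898 and 23087 at 2 h and 105006, 104518 and 94311 at 24 h, beside a vehicle mean of 35665, a change of 2.39 (SE 0.15, adjusted p = 9.87e-05). It was below vehicle at 2 h and above it at 24 h. Bgn, Lum and Sparc, a pair of small proteoglycans and a collagen-binding protein, rose by 1.67, 1.61 and 1.42. With spike-in scaling 12 members rose and 8 fell, and with the slide as a block 10 rose and 3 fell.

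**Figure D3:**
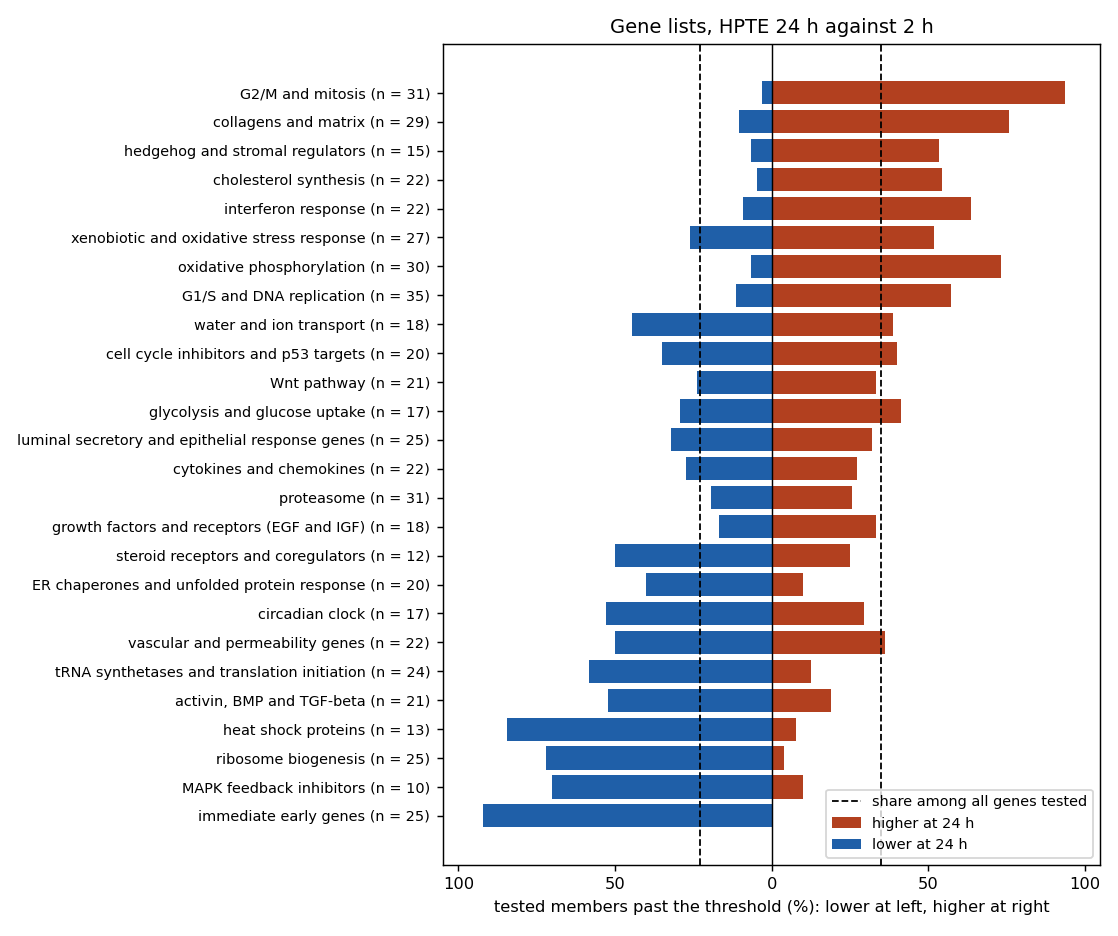
Share of tested members of each of the 26 gene lists past the threshold as higher (red, right) or lower (blue, left) at 24 h than at 2 h of HPTE, in percent, with the number tested, sorted by the median change. Dashed lines mark the shares among all genes, 35.0% higher and 22.9% lower. With spike-in scaling the sign of the median turned for 11 lists, whose medians lay between 0.09 and 0.47: growth factors, Wnt, G1/S, cell cycle inhibitors, proteasome, glycolysis, oxidative phosphorylation, xenobiotic, luminal secretory, water and ion transport, and cytokines.

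Transport and secretion changed member by member. The water channels Aqp8 and Aqp5 were high at 2 h: Aqp5 read 48666, 46372 and 45759 at 2 h and 2118, 3005 and 3654 at 24 h, beside a vehicle mean of 1843, a change of -4.04 (SE 0.20, adjusted p = 5.37e-05), and Aqp8 changed by -4.99. Slc26a4, an anion exchanger, and Clca1, a secreted regulator of chloride channels, rose by 3.08 and 2.15. Of 18 members tested, 7 rose and 8 fell, or 38.9% and 44.4%, beside 35.0% and 22.9% of all genes. In the list of luminal secretory and epithelial response genes, 8 of 25 rose and 8 fell, or 32% each. The 8 that fell were the 3 hair keratins and 5 of the kallikreins above. Muc1, a surface mucin, read 136, 102 and 159.6 at 2 h and 557, 526 and 673 at 24 h, beside a vehicle mean of 160.2, a change of 2.16 (SE 0.19, adjusted p = 3.07e-04). Ltf, lactoferrin, the classical late estrogen marker of the mouse uterus, read 4440.1, 10282 and 4038 at 2 h and 2749.6, 10675 and 9222 at 24 h, beside a vehicle mean of 8284. Its arrays spread about as widely within a time as between times, and its change of 0.18 did not pass (adjusted p = 0.822).

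Of 22 cytokine and chemokine genes tested, 6 rose and 6 fell, shares of 27.3% each that lie below or near the 35.0% and 22.9% of all genes. Socs3 and Socs1, feedback inhibitors of JAK-STAT signalling, fell by 3.69 and 3.46. Socs3 read 86870.0, 85404 and 89049.9 at 2 h and 7171, 6244 and 6870.4 at 24 h, beside a vehicle mean of 8657. The cytokine Il11 fell by 2.80. The chemokine Cxcl5 was well above background on no 2 h array and was at least 4.96-fold higher at 24 h (adjusted p = 9.72e-04), and the call was lost with the slide as a block. Cxcl10 read 244, 278 and 371 at 2 h and 1552, 861 and 2421 at 24 h, beside a vehicle mean of 1275, a rise of 2.34. Of 22 interferon response genes tested, 14 rose, led by Ifit3 (1.60) and Rsad2 (1.499), and 2 fell, Usp18 the further of them (-0.92). With spike-in scaling 6 rose and 3 fell, and with the slide as a block 9 rose. Ifit3 read 2103, 2878 and 2449 at 2 h and 7363, 5117 and 11047 at 24 h, beside a vehicle mean of 6119, so that it was below vehicle at 2 h and about at vehicle at 24 h.

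Of 27 xenobiotic and oxidative stress genes tested, 14 rose and 7 fell, or 51.9% and 25.9%, beside 35.0% and 22.9% of all genes. With spike-in scaling 4 rose and 10 fell. Tiparp, a target and inhibitor of the Ah receptor, read 26406, 26009.7 and 27484 at 2 h and 3609, 2430.2 and 2699.6 at 24 h, beside a vehicle mean of 4020.2, a change of -3.21 (SE 0.15, adjusted p = 5.06e-05). The Ah receptor repressor Ahrr rose by 1.76 (135, 137 and 123 at 2 h and 484, 428 and 426 at 24 h, beside a vehicle mean of 269) and the quinone reductase Nqo1 by 1.48. Cyp3a13, a drug-metabolizing P450, was well above background on no 2 h array and at least 1.85-fold higher at 24 h (adjusted p = 3.31e-04).

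Metabolic lists moved by small amounts. In the cholesterol pathway 12 of 22 genes tested rose, led by Mvk (1.66), Fdps (1.39) and Mvd (1.34), and 1 fell. With spike-in scaling 7 rose and 4 fell. In oxidative phosphorylation 22 of 30 rose, by less than 1 each, and 2 fell (Cycs, by 1.15, and Cyc1). None of the 22 was past the threshold as higher with spike-in scaling, and 7 members were then lower. In glycolysis and glucose uptake 7 of 17 rose and 5 fell, or 41.2% and 29.4%, beside 35.0% and 22.9% of all genes. The largest fall was that of Hk2, the inducible hexokinase, from 7413, 7994 and 7363 to 2139, 2178 and 2483 (change -1.75). In the proteasome list 8 rose and 6 fell of 31, none by more than 0.50 on the log2 scale. Their shares of 25.8% and 19.4% lie below those of all genes.

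Core clock genes differed between the times. Of 17 tested, 9 fell and 5 rose. Cry2 and Per2 fell by 1.66 and 1.52, and Dbp and Nr1d1, output and repressor genes of the clock, rose by 1.44 and 1.49. Per2 read 6662, 7542 and 6691 at 2 h and 2113, 2386 and 2828 at 24 h, beside a vehicle mean of 2426. The hour of injection and of collection is not given in the sources used here, so time after HPTE and time of day cannot be told apart in this comparison.

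Markers of cell types were read on the same arrays, where 35.0% of all genes were higher and 22.9% lower at 24 h. The 9 epithelial markers gave 7 higher and none lower, and their summed level was 149400 to 161210 at 2 h and 268300 to 291130 at 24 h. Krt8 changed by 1.06 and the tight junction gene Cldn4 by 2.01. Of 8 stromal markers 7 rose and 1 fell, of 8 smooth muscle markers 4 rose and 1 fell, and of 8 endothelial markers 4 rose and 1 fell. For smooth muscle and endothelium these are shares of 50% and 12.5%. With spike-in scaling the stromal markers gave 3 rises and 2 falls, smooth muscle no rise and 4 falls, and endothelium no rise and 2 falls. With the slide as a block 3 stromal and 1 endothelial marker rose. Of 8 macrophage and monocyte markers 6 rose and none fell, with a summed level of 123390 to 159090 at 2 h and 152930 to 277070 at 24 h. With the slide as a block 1 macrophage marker was past the threshold as higher, and with spike-in scaling 1. The part of these shifts in the gene lists above was not tested. Of 13 lymphocyte and natural killer markers 3 rose (23.1%) and none fell, below both shares of all genes. No neutrophil (4 tested), eosinophil (3), red cell (3), adipose (7) or maturing sperm cell (12) marker passed. Mast cell and mesothelial markers gave 1 rise and 1 fall each, of 6 tested in either list, and ovary and oviduct markers 1 rise of 6. The pancreas list gave 2 rises and 2 falls of 9 tested, 22.2% each, below or near the shares of all genes. Its summed level was 944 to 1560 at 2 h and 1242 to 2031 at 24 h. The liver list gave 2 falls (Hpx and Ahsg) of 6 tested. Adipose markers spread within a time, with a summed level of 47749 to 135650 at 2 h and 12593 to 115110 at 24 h.

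A set of 22 transcripts was also followed by RT-PCR in the study. Most came from earlier work on E2, whereas Axin1, Per1, Gna12, Mvp and Tnxb were picked by the study from array data as apparently raised by BPA and HPTE only. The study reports repeating the experiment with new samples, the series used here, and states that these selective patterns were then no longer seen. All 22 were on the array. From 2 h to 24 h of HPTE, 13 fell and 7 rose. Besides those named above, Stat5a, a transcription factor of cytokine and prolactin signalling, read 10276, 9792 and 8516 at 2 h and 2187, 2465 and 2277 at 24 h, beside a vehicle mean of 1972, a change of -2.04 (SE 0.10, adjusted p = 5.09e-05). Ppp2r2c, a regulatory subunit of protein phosphatase 2A, read 7867, 8124 and 7228 at 2 h and 370.1, 802 and 627 at 24 h, beside a vehicle mean of 611, a change of -3.76 (SE 0.28, adjusted p = 1.78e-04). Both were near the vehicle level at 24 h. Aurkb, a mitotic kinase, rose by 2.20. Among those picked from array data, Mvp, the major vault protein, rose by 0.60, Axin1, a scaffold of the Wnt pathway, fell by 0.55, and Gna12, a G protein subunit, rose by 0.19 (adjusted p = 0.0492), a call that was lost or turned under most alternatives. Per1 was just short of the threshold (-0.28, adjusted p = 0.05002), and Tnxb did not pass (-0.27, adjusted p = 0.165).

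The vehicle level tells the kinds of change apart. Among the 2387 probes that fell by at least 2-fold, the vehicle mean lay between the 2 h and 24 h means for 1847, below both for 448 and above both for 92. Within a doubling of the vehicle mean were 2107 of them at 24 h and 985 at 2 h. Among the 2861 that rose by at least 2-fold, the vehicle mean lay between for 1700, above both for 1007 and below both for 154, and 2344 were within a doubling of vehicle at 24 h against 1233 at 2 h. More probes were thus near the vehicle level at 24 h than at 2 h in both directions. The vehicle arrays were labelled 24 h only and carried the sperm cell transcripts given above, and the counts place the vehicle level and are no test.

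**Figure D4:**
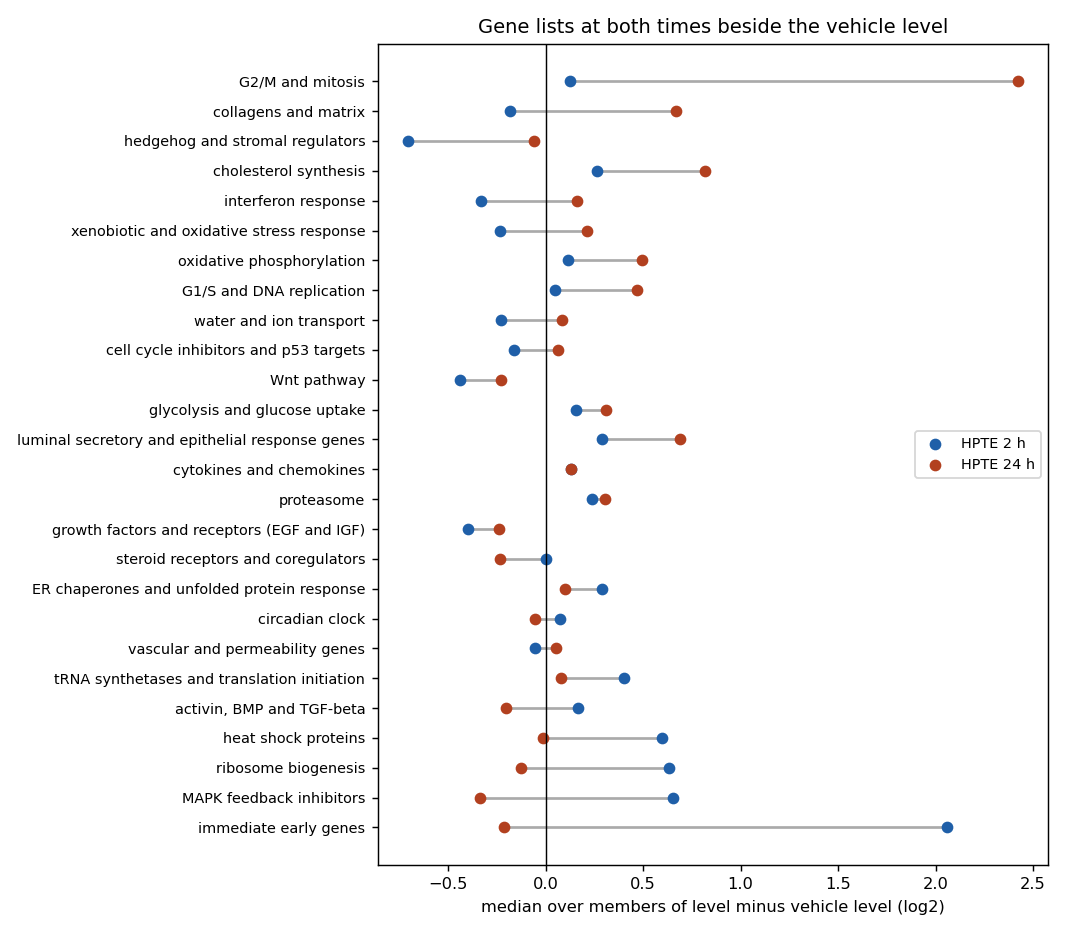
Median over the tested members of each gene list of the HPTE 2 h (blue) and HPTE 24 h (red) level minus the vehicle level, on the log2 scale, in the order of the median change from 2 h to 24 h. Immediate early genes lie 2.06 above vehicle at 2 h and -0.21 from it at 24 h, and mitotic genes 0.12 and 2.42, whereas hedgehog and stromal regulators lie at -0.70 at 2 h and -0.06 at 24 h.

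The same step from 2 h to 24 h was compared with that under E2 (5 arrays) and under BPA (6 arrays), none of them shared with HPTE. The E2 dose differs from that of HPTE by weight, while BPA and HPTE were given at 750 µg each. The change differed between HPTE and E2 for 14959 of 31446 probes (8267 with the larger value under HPTE and 6692 with the smaller, limma), which is 47.6%, and at the level of genes for 50.6%. Over all probes the changes under the 2 compounds correlated with r = 0.41, given as a description across probes. The balance of directions depended on the scaling here too (2679 and 10899 unscaled, 981 and 6217 with spike-in scaling).

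The lists of growth and protein production differed in 1 direction. The change is counted here with its sign, so that a steeper fall is a lower value. All 31 proteasome genes, 34 of 35 G1/S genes and 22 of 25 ribosome biogenesis genes had a lower value under HPTE than under E2. So did 21 of 24 synthetases and initiation factors and 17 of 22 cholesterol genes. None of these lists had a member with a higher value, under each of the scalings. The median change of the ribosome biogenesis genes was -0.68 under HPTE and 0.48 under E2, and that of the G1/S genes 0.37 and 1.43. Of the 31 mitotic genes 7 had a lower and 1 a higher value under HPTE (17 and 0 without scaling), and the medians were 2.17 and 2.62. Of the luminal secretory and epithelial response genes 18 of 25 had the lower value under HPTE. Among them were Krt85, with a steeper fall, and Ltf, whose change under HPTE did not pass. Krt85 changed by -7.90 under HPTE and -1.83 under E2, Klk1b24 by -7.23 and -1.28, and Ltf by 0.18 and 3.43. On E2 2 h replicate 2, an array with pancreas transcripts, Klk1 read 90134 and Klk1b5 246763, and the part of those transcripts in the kallikrein values under E2 was not tested.

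Other genes changed more under HPTE. Rgs2 rose by 4.37 under HPTE and changed by -0.20 under E2 at the same probe, Ptgfr by 4.05 and 0.91, Sesn1 by 2.12 and -0.29, and Ahrr by 1.76 and -0.29. The difference was past the threshold for each (adjusted p = 5.00e-05, 0.00194, 9.73e-05 and 1.04e-07). The clock genes differed in another way: 11 of 17 had the higher signed value under HPTE, and 4 with spike-in scaling. Their median change was -0.34 under HPTE and -1.07 under E2, so the list fell less under HPTE. The immediate early genes were divided, with 8 higher and 8 lower signed values under HPTE, and none higher with spike-in scaling. The difference for Fos had an adjusted p of 0.894 (limma).

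**Figure D5:**
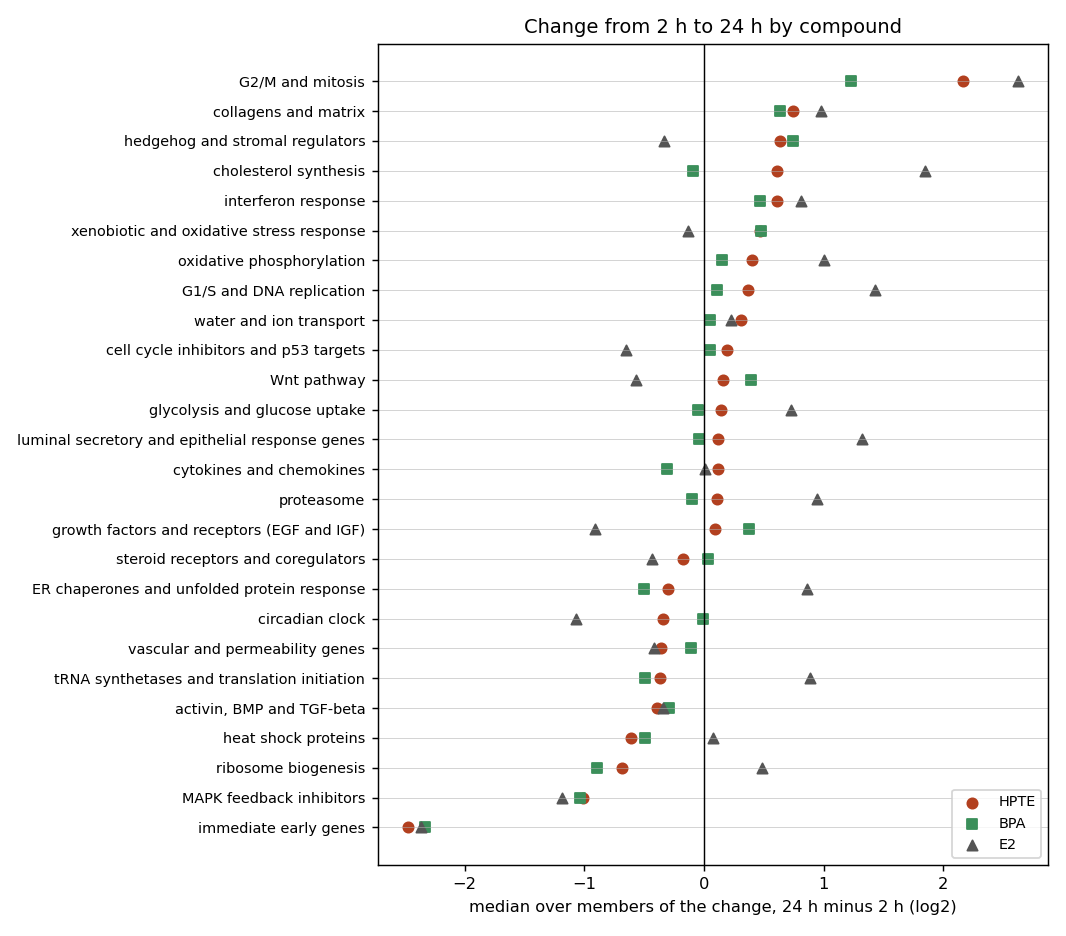
Median change from 2 h to 24 h over the tested members of each gene list (log2) under HPTE (circles), BPA (squares) and E2 (triangles), in the order of the HPTE medians. Ribosome biogenesis genes lie at -0.68 under HPTE, -0.90 under BPA and 0.48 under E2, and mitotic genes at 2.17, 1.23 and 2.62.

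HPTE and BPA, given at the same dose by weight and collected at the same times, are both made of a pair of phenol rings on 1 carbon, which carries a trichloromethyl group in HPTE and methyl groups in BPA. Across all probes, which share arrays and labelling, the changes correlated with r = 0.86. Of 5246 probes picked for a change of at least 2-fold under HPTE, 98.4% had the same sign under BPA and 75.5% under E2. The change differed for 28 probes (15 with the higher and 13 with the lower signed value under HPTE, p adjusted over 31446 probes). This is 0.089% of the probes and 0.123% of the genes tested, although 4712 probes had an unadjusted p under 0.05. The count was 478 without BPA 2 h replicate 3 and 0 without BPA 24 h replicate 2 and without either of replicates 1 and 2 of HPTE 2 h. The slide block, unscaled values and spike-in scaling also gave 0. BPA 2 h replicate 3 stood apart from replicates 1 and 2 for some genes. Inhbb read 51459 on it against 128075 and 123487, and Rgs2 1022 against 250 and 160, whereas Nr4a1 read alike (104152 against 96813 and 100769). The low count and the lack of differences from BPA carry this limit.

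Of the genes measured at both times under both compounds, the difference past the threshold was largest for Crtac1, a matrix protein. Crtac1 changed by 1.89 under HPTE, -0.32 under BPA and 5.97 under E2 at its brighter probe, with a difference from BPA of 2.22 (SE 0.28, adjusted p = 0.0173) that was past the threshold under 13 of 20 alternatives. Cdhr1, a cadherin family member, also passed, under 3 of 20 alternatives. It was well above background on the HPTE 24 h arrays (34.7, 22.1 and 24.1) and on no HPTE 2 h or BPA array, so that its difference has no measured size. Vcam1, an adhesion molecule of vessels and stroma, differed by 1.32 (SE 0.19, adjusted p = 0.0249), Cenpa, the centromeric histone, by 1.35 (SE 0.23, adjusted p = 0.0334) and Fdps by 1.17 (SE 0.20, adjusted p = 0.0334). Genes with a smaller value under HPTE included Ppp1r3c, a glycogen-targeting subunit, which changed by -1.13 and 0.03, a difference of -1.16 (SE 0.14, adjusted p = 0.0173). Of the 20 alternatives, 12 kept the call for Vcam1, 5 for Cenpa, 7 for Fdps and 14 for Ppp1r3c.

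None of the 22 RT-PCR transcripts differed past the threshold between HPTE and BPA, with intervals of varied width. For Nr4a1 the difference was -0.01 (95% interval -0.32 to 0.30, adjusted p = 0.987), for Fos -0.28 (95% interval -1.13 to 0.56, adjusted p = 0.79) and for Ppp2r2c -0.01 (95% interval -0.82 to 0.79, adjusted p = 0.992), so that differences of a doubling are outside the interval for Nr4a1 and Ppp2r2c and inside it for Fos. For Ccnb2 it was 1.29 (95% interval 0.63 to 1.95, adjusted p = 0.0891) and for Ube2c 1.25 (95% interval 0.65 to 1.85, adjusted p = 0.0824), and the median change of the mitotic genes was 1.23 under BPA and 2.17 under HPTE. Of the 31 mitotic genes Cenpa was the one past the threshold for the difference, a call kept under 5 of 20 alternatives.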

How the data were processed

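Scanner files of 20 mouse Agilent arrays were read. The authors extracted the intensity values (gProcessedSignal) with Feature Extraction 9.5, which subtracts background and leaves arrays unscaled. Intensity values in the deposited series matrix were identical to these at every spot. The flags for spots above background, saturated, outlying or control are of type other per the file headers. Outlying spots were left out and spots of a probe averaged on the log2 scale (41174 probes).

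Intensities were log2 transformed, shifted so that the 75th percentiles of all arrays met at their median. Probes entered the test if all 3 arrays of HPTE 2 h or all 3 of HPTE 24 h flagged them well above background. The 6 HPTE arrays were fitted with limma 3.58.1 (lmFit, eBayes, R 4.3.3), as a 2-sided test at a Benjamini-Hochberg threshold of 0.05. Differences of the change between compounds, vehicle levels and slide blocks came from a fit of all 20 arrays over 7 groups. Tables and plots were made with Python. The fit was tested on simulated data. The number of arrays limits the precision.

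Groups came from the labels. The labels describe extraction of each uterus, and the study's methods pooled uteri. The p-values measure the spread between arrays of a group, whether single animals or pools. Positions are mm7 per the file headers. Of 26821 probes with a RefSeq accession, 23082 matched a current symbol in the RefSeq table on GRCm38.p6, which also gave the promoters. A gene was read at its brightest probe over the 6 arrays. Where a group had no array well above background, the fold is a bound against the lowest signal above background on each of its arrays.

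Named genes were the 22 RT-PCR transcripts, the 12 largest increases and 12 largest decreases among changed probes whose arrays at 2 h and 24 h did not overlap (1 probe per symbol, no clone, Rik, Gm, LOC or accession names), and up to 4 members per list with the largest change, plus members its biology turns on. Cdhr1, Crtac1, Vcam1 and Ppp1r3c were chosen after their values were seen. The members and the 26 gene lists and 16 marker lists were chosen with earlier results of these data known. Results on a few listed genes are not reported here. Alternatives were other scalings, filters, blocks for slide, scan day and replicate number, variance models, a fold requirement and leaving out each array.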

Additional observations from a re-analysis of the deposited data

Results flagged for a closer look

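The 24 h minus 2 h change differed between HPTE and E2 for 14959 probes and between HPTE and BPA for 28 (limma, adjusted p under 0.05, 20 arrays). For single genes the values below are the change under HPTE minus the change under E2 on the log2 scale, each past the threshold of the test of that difference. E2 and HPTE doses differ, and E2 24 h has 2 arrays. The median of this difference over all probes was 0.09, but -0.43 without scaling and -0.56 with spike-in scaling. Small positive values, that of Nr4a1 below among them, carry this limit.

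Among the largest decreases, the fall was steeper under HPTE for the hair keratins Krt85 (-6.07), Krt87 (-3.94) and Krt86 (-3.59), the kallikreins Klk1b24 (-5.95), Klk1b21 (-5.72) and Klk1b27 (-5), and Dok7 (-4.2). Among the largest increases, the rise was greater under HPTE for Rgs2 (4.57), Mab21l3 (3.49), Ptgfr (3.14) and the dim probe for Dcn (2.66). Klk1b21 was well above background on 1 and Klk1b27 on 2 of the 3 HPTE 24 h arrays, and this probe for Mab21l3 on 1 of the 3 HPTE 2 h arrays.

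For another 6 probes a group was not measured, and the fitted difference has no exact size. No HPTE 24 h array was well above background for Otop1 (-6.08), for which no E2 array was either, or for a probe of Klk1b26 (-4.65). No HPTE 2 h array was for Slco4c1 (4.28), a probe of Syt4 (2.86) and Ifne (-1.52), and no E2 24 h array for Egr4 (2.21).

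Of the 22 RT-PCR transcripts, 12 differed, a share near the 50.6% of all genes tested. The change was lower under HPTE for, among others, Ppp2r2c (-4.16), Inhbb (-1.99), Cdkn1a (-1.96), Mad2l1 (-1.54), Stat5a (-1.22), Cdk1 (-1.18), Ccn1 (-0.997) and Axin1 (-0.492), and higher for Per1 (1.62), Tnxb (1.17) and Nr4a1 (0.421). The cause of these differences was not tested.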

How the results depend on the processing

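The number of probes past the threshold between 24 h and 2 h of HPTE was 17621 and lay between 12384 (slide as a block) and 19215 (spike-in scaling) under the other scalings, filters, blocks and variance models, with 5248 when a 2-fold change was also required. It was 14624 to 16336 when 1 array was left out. The series matrix, whose values equal those of the scanner files, gave 17621. Replicate numbers do not pair the arrays: deviations of same-numbered arrays correlated by -0.09, 0.33 and -0.22, replicate 2 alone correlated best with its own number, and 15761 probes passed with a replicate block. The HPTE against E2 count of 14959 became 7198 with spike-in scaling, 14502 with the replicate block and 12304 to 14396 with 1 array left out. The HPTE against BPA count of 28 became 0 with no scaling, with spike-in scaling and with the slide as a block, 6 with the replicate block, 8 with only the arrays of the 2 compounds and 85 after normexp and quantile normalization together, and 0 to 478 with 1 array left out. Leaving 1 array out of E2 24 h left a lone array, assumed to vary like the other groups.

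Of 162 readings of named genes, 134 had the same direction and call under each alternative. Signs turned with spike-in scaling for Dcn at its bright probe (-0.32), Klf6 (-0.456), Ltf (-0.36), Gna12 (-0.355), Npm1 (-0.012), Nr3c1 (-0.21) and Pdia4 (-0.004), with no scaling for Dcn (-0.033), Gna12 (-0.068), Klf6 (-0.17) and Ltf (-0.074), after normexp and quantile normalization for Dcn (-0.011), and with the slide as a block for Ltf (-0.42). With 1 array left out, values ranged from -0.329 to 0.059 for Esr1, from -0.052 to 0.014 for Pttg1 and from -0.18 to 0.802 for Ltf. Medians of 26 gene lists kept their sign in 15 with spike-in scaling, 19 with no scaling, 26 with quantile normalization and 25 with the slide as a block. Signal over background limits the 9718 probes left out as dim. The cause of these shifts was not tested.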
